A study of Rattus norvegicus with 6 samples.

Results

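The genes described here encode 10 regulators of the cell cycle: the transcription factor FOXM1 (*Foxm1*), the MYB proteins B-MYB (*Mybl2*) and A-MYB (*Mybl1*), the MuvB subunits LIN9, LIN37, LIN52 and LIN54, and the retinoblastoma proteins RB (*Rb1*), p107 (*Rbl1*) and p130 (*Rbl2*). They were taken by name from the gene column of the array files, which gave 10 of the 20175 named genes on the array and 16 probes. Expression was compared between replicating and quiescent β-cells of young adult male Wistar rats. Islets were cultured overnight in 5.5 mM glucose with 5-ethynyl-2′-deoxyuridine (EdU), a thymidine analogue that cells build into DNA during S phase. Dispersed cells were fixed and permeabilised, and β-cells were sorted by size, granularity and the zinc dye Newport Green. EdU-positive cells were collected as replicating and EdU-negative cells as quiescent. There were 3 islet preparations, each pooled from 4 rats, and each gave 1 array per group, so that n = 3 in both groups. No animal carried a transgene or other allele named in the labels.

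FOXM1 is a forkhead transcription factor that drives genes of G2 and mitosis, and mouse β-cells that lack it divide poorly. MuvB is a core complex that changes partners as the cell cycle proceeds. In quiescent cells it joins p130 or p107 with E2F4 and DP proteins in the DREAM complex, which keeps cell cycle genes off, and in dividing cells it joins B-MYB and then FOXM1 to turn on late genes. LIN54 is the subunit that contacts the CHR element, a short sequence in the promoters of late genes. The retinoblastoma proteins hold E2F factors in check until cyclin-dependent kinases release them.

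An array probe reads only the stretch of transcript it matches, and the probes of a gene can differ. The first 30 of the 60 bases of the probes are shown for 4 genes whose probes either overlapped or read different stretches with different results. Capitals in the *Mybl2* probes mark the bases that both share within the part shown.
Foxm1 probe A_42_P527141: ccactctacaagctagcacaagaacactac
Foxm1 probe A_44_P744063: tctcaggttgtcctgagcagtaggctttgg
Mybl2 probe A_44_P653701: ACACGCAAATGTGTGCCTTCTTGTCAGcca
Mybl2 probe A_44_P1160843: gacACACGCAAATGTGTGCCTTCTTGTCAG
Mybl1 probe A_44_P1105423: cacataccaatactgcattctgttgtaagg
Mybl1 probe A_44_P1086559: gccagtgttgtttcttgccattacagctaa
Lin52 probe A_44_P1127129: aacagaatggatggccaaaataactacccc
Lin52 probe A_44_P1094184: gtaggggacaagtgaggtcatggaaggatg
Lin52 probe A_44_P660676: ctcactgaatgcagttaagtgagtttgtac
The *Mybl2* probes share 57 bases and start 3 bases apart, so they are not independent readings. The *Foxm1* probes start 883 bases apart on the rat build rn4 and the *Mybl1* probes 1535 bases apart. The *Lin52* probes lie within 14681 bases. The files do not say in which exon or untranslated region a probe lies.

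Promoter windows of RefSeq genes (build GRCr8, 250 bases before to 50 after the start) were matched for 8 of the 10 genes, all but *Foxm1* and *Mybl1*. Stretches of 60 bases are shown for the 4 genes with an E2F element and for *Mcm5*, a replication gene and known E2F target. *Mcm5* was chosen for its log2 ratio, among the 3 highest of the E2F targets described below, and for its match here. Capitals mark the E2F letters.
Mybl2 promoter, chr3:172124745-172124804, plus strand: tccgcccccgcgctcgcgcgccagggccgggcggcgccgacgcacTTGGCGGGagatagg
Rbl1 promoter, chr3:166289377-166289436, minus strand: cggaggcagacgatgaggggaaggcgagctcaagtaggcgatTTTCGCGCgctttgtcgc
Lin52 promoter, chr6:109830189-109830248, plus strand: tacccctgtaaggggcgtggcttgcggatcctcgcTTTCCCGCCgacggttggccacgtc
Rb1 promoter, chr15:54911918-54911977, minus strand: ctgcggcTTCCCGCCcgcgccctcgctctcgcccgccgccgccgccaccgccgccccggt
Mcm5 promoter, chr19:13488753-13488812, plus strand: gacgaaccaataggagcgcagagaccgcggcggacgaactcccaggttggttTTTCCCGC
The E2F letters searched were TTTCCCGC, TTTGGCGC, TTCCCGCC and TTTGGCGG on both strands. Some of these letters overlap, so that TTTCCCGC and TTCCCGCC match together in *Lin52*. TTTCGCGC and TTGGCGGG were added after the sequences had been seen, and the matches of *Rbl1* and *Mybl2* are of these added spellings.

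All values are log2 signals after normexp background correction and quantile normalization, in which a fold change of a dim probe is understated, and ratios are replicating over quiescent. Of all 45598 probes, 0 (0%) passed an adjusted p of 0.05 in limma (Benjamini-Hochberg), so genes are called higher or lower here at an unadjusted p under 0.05, with the adjusted p beside it. At that threshold 5.01% of all probes were higher and 4.59% lower; scaling to the 75th percentile of the processed signal turned the split to 662 higher and 3193 lower probes. The quiescent array of preparation 2 stood apart from the other quiescent arrays, with a Pearson's r of 0.830 and 0.654 across probes and 1583 outlier spots, against 252 to 299 on the other 5 arrays. Quiescent array 3 was closer to the replicating arrays (r of 0.943 to 0.969) than to the other quiescent arrays (0.867 and 0.654), and 85.7% of its probes were well above background, against 80.8% to 87.3% on the replicating arrays and 96.4% and 98.5% on the other quiescent arrays. Preparation 3 also gave the smallest median ratio of the 10 genes, and the part of this likeness in it was not tested. All 6 arrays were on 1 slide. Insulin genes read 15.5 to 17.2 on every array. Lower RNA per cell and fewer expressing cells in a sorted pool cannot be told apart.

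Of the 16 probes, 7 were higher and 1 was lower in replicating β-cells, and 14 were well above background on all 6 arrays. Every replicating array lay above every quiescent array for 7 probes and below every one for 2, whether called or not. These 7 include the uncalled second *Foxm1* probe and leave out *Lin54*, which lacked a value. The 2 are the called *Lin52* probe and that of *Lin9*, which was not called. Among all probes with 6 values, 9.01% had every replicating array above every quiescent array and 7.1% had every one below. With each gene read by its brightest probe over all arrays, 6 of 10 genes were higher, namely *Foxm1*, *Mybl2*, *Mybl1*, *Lin54*, *Rb1* and *Rbl1*. The replicating signal enters this choice of probe. On the quiescent arrays the chosen probe was the dimmer one for *Mybl1* (mean 6.80 against 6.88) and *Rbl2* (8.41 against 8.76). Among all named genes 5.94% were higher and 3.51% were lower. *Lin52* was lower, and *Lin9*, *Lin37* and *Rbl2* passed in neither direction. The median log2 ratio of the 10 genes was 1.59, against -0.04 for all named genes. By preparation it was 1.78, 2.49 and 0.68, the smallest in preparation 3. Without preparation 1 only *Foxm1*, *Mybl2* and *Mybl1* were called.

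**Figure D1:**
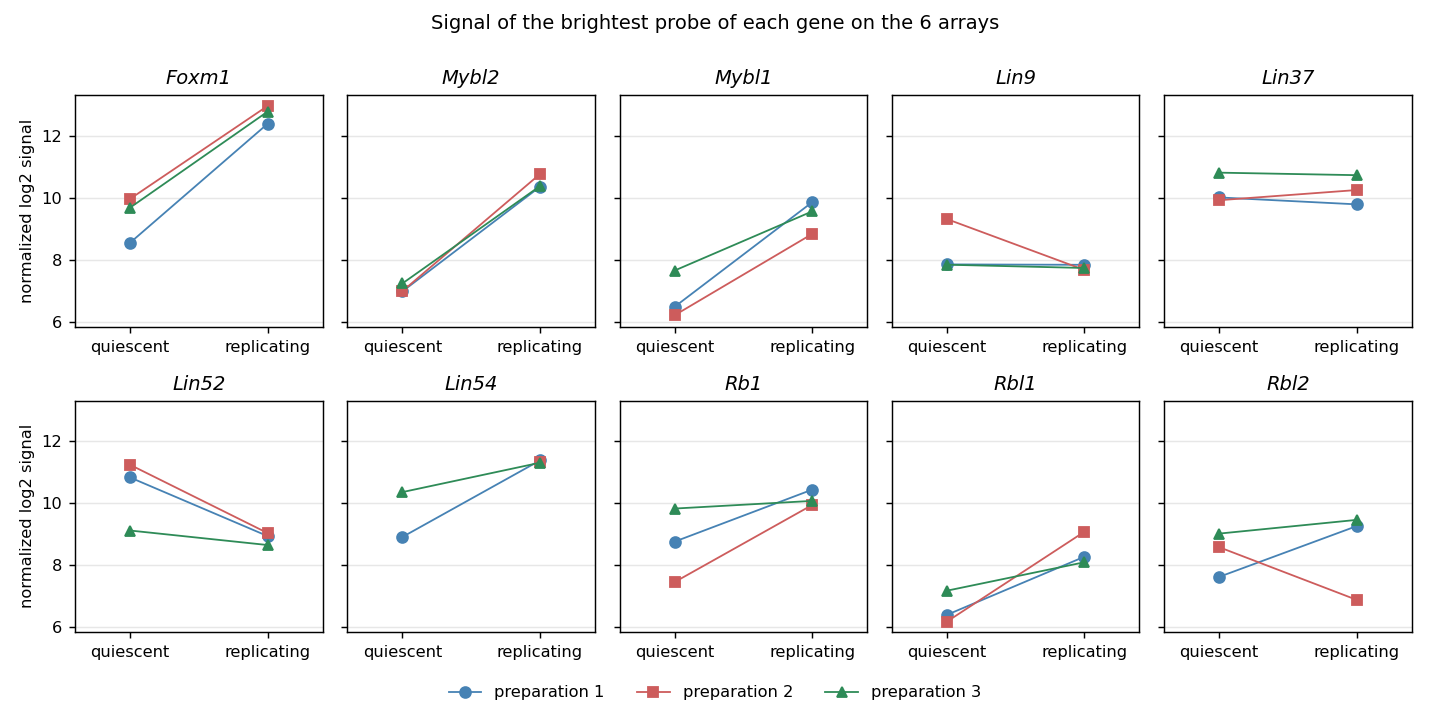
Normalized log2 signal (vertical axis) of the brightest probe of each of the 10 genes on the quiescent and replicating arrays (horizontal axis), with a line joining the arrays of each islet preparation. The lines of *Foxm1*, *Mybl2*, *Mybl1*, *Rb1* and *Rbl1* rise in every preparation, that of *Rb1* only slightly in preparation 3. *Lin54* lacks a line for preparation 2, whose quiescent spot was marked as an outlier.

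*Foxm1* read 12.40, 12.98 and 12.80 on replicating arrays 1 to 3, at the probe on chromosome 4 of rn4 from 165394514 to 165394573. On the quiescent arrays the same probe read 8.56, 9.98 and 9.70. Every replicating array lay above every quiescent one. Its log2 ratio of 3.31 (standard error 0.34), which is 9.94-fold, came from 3.84, 3.00 and 3.10 in preparations 1 to 3 (unadjusted p = 0.000173, adjusted p = 0.143 from limma). The downstream probe, which stands for predicted transcripts, read 6.62, 6.49 and 6.79 against 6.42, 5.87 and 6.23. It was well above background on 2 replicating arrays and 1 quiescent array, and its ratio of 0.46 had an unadjusted p of 0.201. Taking the median over both probes in place of the brightest lowered the *Foxm1* ratio to 1.88, still past the unadjusted threshold (unadjusted p = 0.00117 in limma).

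*Mybl2*, whose product joins MuvB to turn on late genes, had a ratio within 1 standard error of that of *Foxm1*. Its brighter probe, on chromosome 3 from 153954267 to 153954323, read 10.37, 10.78 and 10.39 on the replicating arrays. The quiescent arrays read 6.99, 7.00 and 7.25, with no overlap between the groups. The preparations gave log2 ratios of 3.38, 3.78 and 3.14, together 3.43 (standard error 0.32) or 10.8-fold. Its adjusted p from limma was 0.120, the smallest among the 16 probes. The overlapping probe gave 3.71 (standard error 0.36). Over the alternative processings the adjusted p of the brighter probe from limma ran from 0.000565 to 0.479. Without preparation 1 it was 0.966.

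*Mybl1* encodes A-MYB, best known from male germ cells. One probe, on chromosome 5 from 9172059 to 9172118, stands for a predicted transcript. It read 9.87, 8.85 and 9.58 on the replicating arrays and 6.50, 6.22 and 7.67 on the quiescent arrays. The groups did not overlap, and the log2 ratio was 2.64 (standard error 0.40, unadjusted p = 0.00108, adjusted p = 0.281 from limma). In preparations 1, 2 and 3 it was 3.38, 2.62 and 1.91. The other probe stands for a transcript not labelled as predicted, and it was not called. It read 7.65, 7.69 and 7.03 on the replicating arrays and 6.36, 8.02 and 6.26 on the quiescent arrays. Quiescent array 2 thus lay above all others. The ratio of this probe was 0.58 with an unadjusted p of 0.228, and without preparation 2 it was 1.03 (unadjusted p = 0.0380).

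Among the MuvB subunits *Lin54*, the DNA-contacting subunit, was higher, *Lin52* was lower at its brightest probe, and *Lin9* and *Lin37* passed in neither direction. *Lin54* read 11.38, 11.33 and 11.31 on the replicating arrays, and 8.92 and 10.36 on quiescent arrays 1 and 3. The spot of quiescent array 2 was marked as an outlier, so the fit used 2 quiescent values. The ratio was 1.71 (standard error 0.56, unadjusted p = 0.0353, adjusted p = 0.475 from limma), with 2.47 in preparation 1 and 0.95 in preparation 3. With the outlier spot kept it was 1.22 (unadjusted p = 0.0607), and without preparation 1 it was 0.95 (unadjusted p = 0.353).

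*Lin52*, the subunit that DYRK1A phosphorylates for DREAM assembly, was read by 3 probes that differed in sign. The brightest stands for a predicted non-coding transcript of the gene and read 8.94, 9.04 and 8.66 on the replicating arrays. It read 10.84, 11.24 and 9.12 on the quiescent arrays, each above every replicating array. The ratio was -1.52 (standard error 0.45, unadjusted p = 0.0186, adjusted p = 0.475 from limma), and it was -1.89, -2.20 and -0.47 by preparation. Without preparation 1 its p was 0.120. The probe upstream of it read 7.54, 7.70 and 7.52 against 7.98, 12.36 and 7.47, where only quiescent array 2 stood high. Its ratio of -1.69 became -0.20 without preparation 2. The third probe read 7.62, 7.20 and 7.76 against 7.25, 6.56 and 8.26, a ratio of 0.17 (unadjusted p = 0.668). A further probe that the files describe as Lin52 but name by another identifier gave -0.26 (unadjusted p = 0.715). The 2 dimmer probes stand for predicted coding transcripts, and neither was called, although with normexp values scaled to the 75th percentile the upstream one was -1.63 (unadjusted p = 0.0108 in limma).

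*Lin9*, a subunit that holds the complex together, read 7.85, 7.69 and 7.75 on the replicating arrays and 7.86, 9.33 and 7.85 on the quiescent arrays. Every replicating array lay below every quiescent one, but only quiescent array 2 stood well above the rest. The ratio was -0.59 (unadjusted p = 0.244), and -0.06 without preparation 2. *Lin37*, a subunit needed for repression by DREAM, read 9.80, 10.26 and 10.74 against 10.03, 9.94 and 10.82. Its ratio of 0.01 (standard error 0.32) had unadjusted p = 0.981, and its sign turned under 4 of 11 alternatives. Several of the 11, such as the variance trend and the median over probes, left the ratio of this probe unchanged by design.

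**Figure D2:**
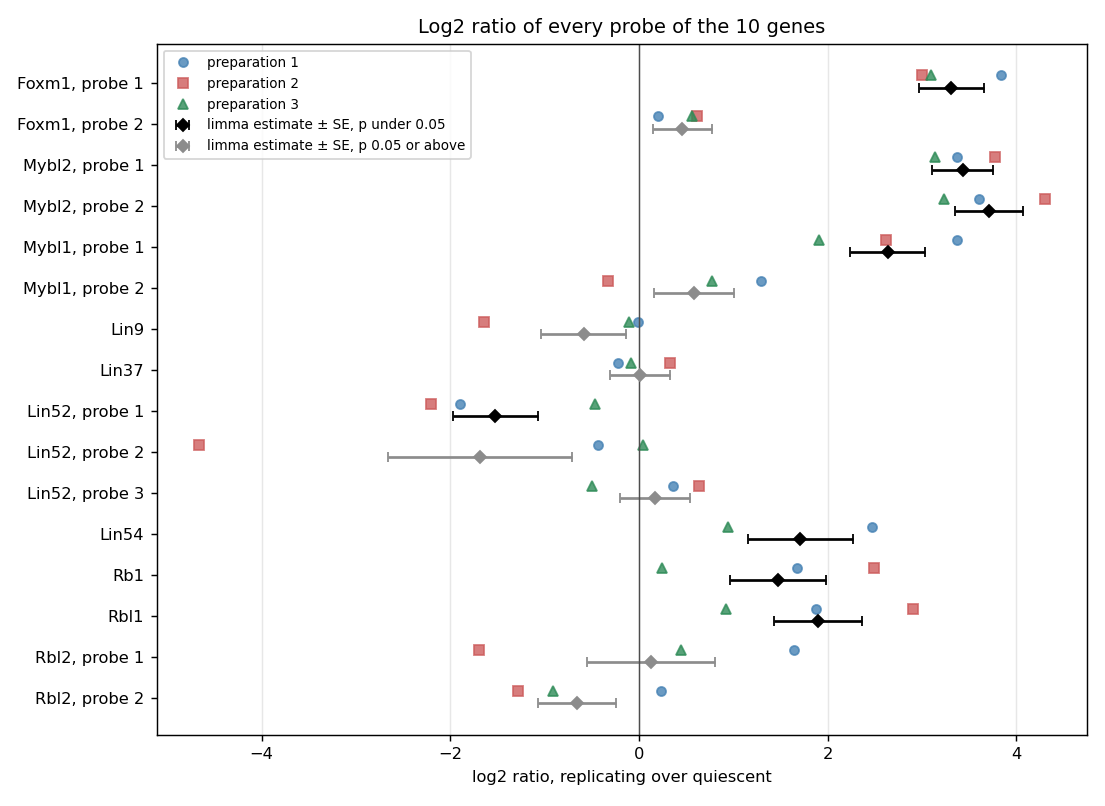
Log2 ratio of replicating over quiescent β-cells (horizontal axis) of the 16 probes (vertical axis), as coloured points for the 3 preparations and a diamond with bars for the limma estimate and its standard error; probes of a gene are numbered in the order of the text. Black diamonds have an unadjusted p under 0.05: 7 probes lie to the right of 0 and 1 *Lin52* probe to the left.

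Of the retinoblastoma genes, *Rb1* and *Rbl1* were called higher in replicating β-cells and *Rbl2* was not called; the difference between the genes was not tested. *Rbl1*, which encodes p107 and is itself a known E2F target, read 8.28, 9.09 and 8.10 on the replicating arrays against 6.40, 6.18 and 7.18 on the quiescent arrays, on chromosome 3 from 147753870 to 147753929. The groups did not overlap. By preparation the ratio was 1.88, 2.90 and 0.92, with an estimate of 1.90 (standard error 0.47, unadjusted p = 0.00909, adjusted p = 0.475 from limma), or 3.73-fold. Without preparation 1 the ratio was 1.91 (unadjusted p = 0.0552).

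*Rb1* read 10.44, 9.95 and 10.08 on the replicating arrays and 8.77, 7.46 and 9.83 on the quiescent arrays, on chromosome 15 from 53829645 to 53829704. The groups did not overlap, but quiescent array 3 was close to the replicating arrays. The ratio was 1.47 (standard error 0.51, unadjusted p = 0.0327, adjusted p = 0.475 from limma), with 1.68, 2.49 and 0.25 in the preparations. The call was lost without preparation 1 (unadjusted p = 0.147), without preparation 2 (0.96, unadjusted p = 0.0809), and with the normexp values (unadjusted p = 0.0550) or the processed signal (unadjusted p = 0.127) scaled to the 75th percentile. *Rbl2*, whose product p130 is the retinoblastoma protein most used in DREAM, had a brighter probe that spans 4935 bases of rn4 for its 60 bases, and so crosses an intron. It read 9.27, 6.89 and 9.47 against 7.63, 8.59 and 9.03, with replicating array 2 below all others. This ratio was 0.13 (unadjusted p = 0.858), and without preparation 2 it was 1.04 (unadjusted p = 0.0538 in limma), beside the 0.96 of *Rb1*. The other probe read 7.96, 7.97 and 8.38 against 7.73, 9.26 and 9.30, a ratio of -0.66 (unadjusted p = 0.172) that was -0.34 without preparation 2.

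The array measured 19 of 21 listed partners and regulators, and *E2f5* and *Myb* were not analysed here. Of the 19, 5 were higher and 0 lower, against 5.94% higher among all named genes. The median ratio of the list was 0.90 (0.69, 1.26 and 0.20 by preparation). The count was 1 without preparation 1, and the median was 0.34 without preparation 2, 0.50 with normexp values scaled to the 75th percentile and 0.55 with cyclic loess. The 5 genes were *E2f2*, an activating E2F factor, the cyclin E genes *Ccne1* and *Ccne2*, *Rbbp7*, a close relative of the MuvB subunit *Rbbp4*, and *Tfdp2*, which encodes a dimer partner of E2F factors. *E2f2* read 10.74, 10.94 and 10.98 against 8.80, 7.68 and 9.22, a ratio of 2.32 (standard error 0.42, unadjusted p = 0.00249). *Ccne1* had a ratio of 2.09 with 2.13, 3.41 and 0.73 by preparation, and *Rbbp7* of 1.69 with 1.68, 3.09 and 0.29 (0.98 without preparation 2). *Ccne1* was no longer called without preparation 1 (unadjusted p = 0.0688), nor was *Rbbp7* without preparation 1 (unadjusted p = 0.121) or 2 (unadjusted p = 0.0735). *Tfdp2* had a ratio of 1.21 (unadjusted p = 0.0391) and was not called without preparation 1 (unadjusted p = 0.232) or 2 (unadjusted p = 0.0784). Nor was it called with the processed signal (1.08, unadjusted p = 0.166) or the normexp values (0.71, unadjusted p = 0.183) scaled to the 75th percentile, and its other probe gave 0.86 (unadjusted p = 0.0528).

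The lowest ratios among the partners were -0.56 for *Ccnd2*, the main D cyclin of β-cells, -0.36 for the kinase gene *Cdk6*, and -0.24 for *Fzr1*, an activator of the APC/C ubiquitin ligase. None of them passed (unadjusted p = 0.141, 0.379 and 0.681). Without preparation 2 *Cdk6* was -0.056 and *Fzr1* 0.44, and the 2 other *Cdk6* probes gave -0.02 and 0.28. *Rbbp4*, the MuvB subunit shared with chromatin complexes, read 13.58, 13.10 and 13.41 against 12.88, 11.44 and 13.83 at its brightest probe. That ratio was 0.65 (unadjusted p = 0.233) and 0.14 without preparation 2, while its 3 other probes gave 0.89 (unadjusted p = 0.0337), 0.82 (unadjusted p = 0.0431) and 1.13 (unadjusted p = 0.0157) with no overlap between the groups. *E2f4*, which encodes the E2F factor of DREAM, read 11.87, 11.59 and 11.67 against 11.41, 7.71 and 12.39. Quiescent array 2 alone was low, and the ratio of 1.21 (unadjusted p = 0.242) became -0.13 without that preparation. The other *E2f4* probe gave -0.64 (unadjusted p = 0.198) and read high on quiescent array 2, at 10.77, against 9.21 and 10.58 on the other quiescent arrays. *Dyrk1a*, the kinase for LIN52, read 10.30, 10.34 and 10.09 against 8.97, 6.55 and 10.15, a ratio of 1.68 (unadjusted p = 0.0767). It was 0.63 without preparation 2 and 0.67 with the median over its probes, of which the other two gave -0.15 and 0.99. *Tfdp1* had 0.92 (unadjusted p = 0.112), and 0.50 with normexp values scaled to the 75th percentile.

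Genes known as late cell cycle targets of FOXM1 and B-MYB-MuvB were higher in most cases. Of 39 measured genes, 31 were higher and 0 lower, against 5.94% higher among all named genes. The median ratio of the list was 2.88 (3.18, 3.00 and 3.15 by preparation). For 30 of the 39, called or not, every replicating array lay above every quiescent array. The same held for 1998 of all 20175 named genes and for 9.01% of all probes with 6 values. *Cenpf* and *Racgap1* lacked a value and could not be counted among the 30. The list holds genes that the study singled out on these arrays, so its direction is not independent. *Ndc80*, a kinetochore gene, read 13.24, 13.41 and 13.02 against 7.92, 6.90 and 8.06, a ratio of 5.60 (standard error 0.42, unadjusted p = 3.45e-05, adjusted p = 0.0977 from limma). Its 2 other probes gave 3.20 and 3.60. *Plk1*, a mitotic kinase, had a ratio of 5.12 (standard error 0.48) and the checkpoint kinase *Bub1* of 4.72 (standard error 0.32), with adjusted p = 0.120 and 0.0977.

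At the low end of this list stood *Cdc25b*, a phosphatase gene, at 0.52 (unadjusted p = 0.224; 0.83 without preparation 2), *Cdc20*, an APC/C activator, at -0.21 (unadjusted p = 0.728), and *Birc5*, which encodes survivin, at -0.93 (unadjusted p = 0.401). *Cdc20* read 11.33, 11.37 and 11.34 on the replicating arrays and 12.35, 12.29 and 10.02 on the quiescent arrays, so that preparations 1 and 2 differed from preparation 3 in sign. Its sign turned under both 75th percentile scalings and without preparation 1 or 2. *Birc5* read 10.64 on quiescent array 2 and 6.55 to 7.68 on the other 5 arrays, and its ratio was 0.59 without preparation 2.

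Genes known as targets of E2F factors held by retinoblastoma proteins, which act in DNA replication and nucleotide supply, were also higher in most cases. Of 34 measured genes, 22 were higher and 0 lower, against 5.94% higher among all named genes. The median ratio of the list was 1.42 (1.43, 1.74 and 1.34 by preparation), and the count was 14 without preparation 1. This list too holds genes that the study singled out on these arrays, among them *Rrm2* and *Mcm5*, so its direction is not independent. *Rrm2*, a subunit of ribonucleotide reductase, read 13.05, 13.02 and 13.01 against 8.22, 10.29 and 7.15, a ratio of 4.47 (standard error 0.65, unadjusted p = 0.000864). *Mcm5*, a subunit of the replicative helicase, came to 3.62 (standard error 0.31, adjusted p = 0.109 in limma). The groups did not overlap for either gene. The lowest ratios among genes well above background on all arrays were 0.34 for *Mcm10*, a replication factor, 0.33 for *Chaf1b*, a histone chaperone subunit, and 0.22 for the phosphatase gene *Cdc25a* (unadjusted p = 0.390, 0.370 and 0.538). *Cdc25a* was 0.10 without preparation 2.

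**Figure D3:**
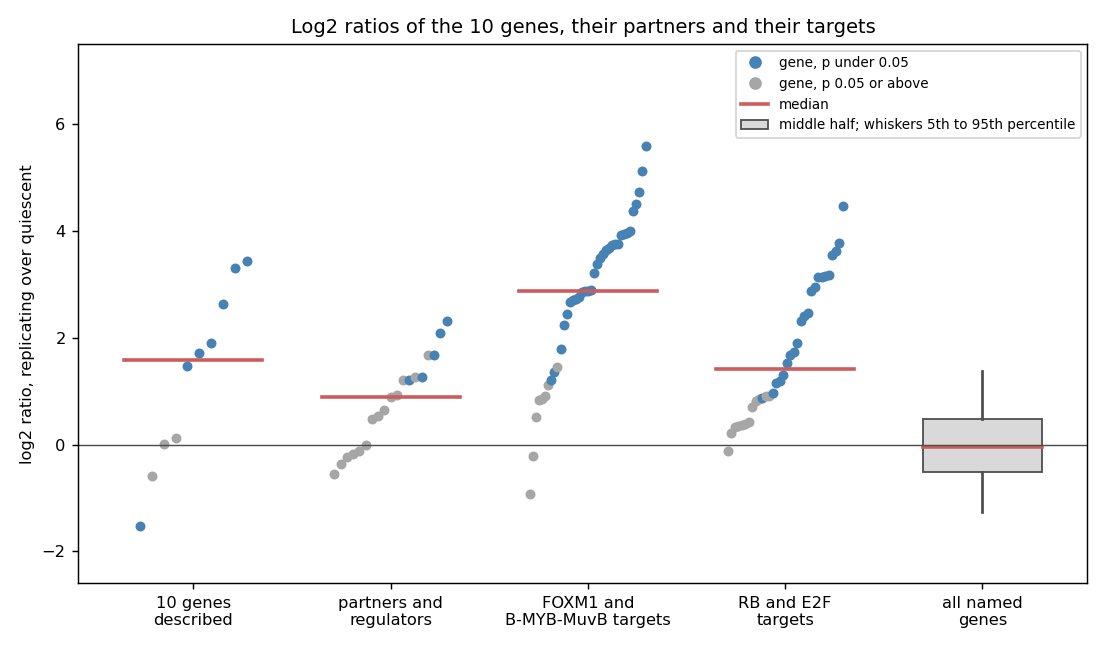
Log2 ratio of replicating over quiescent β-cells (vertical axis) for each gene of 4 lists, sorted within a list, with a red line at the median (1.59, 0.90, 2.88 and 1.42 from left to right). The box gives the quartiles of all named genes with whiskers to the 5th and 95th percentile; blue points have an unadjusted p under 0.05.

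The promoter windows of these lists held different elements. The CHR element (TTTGAA, either strand) was in 67.6% of 34 windows of the FOXM1 and B-MYB-MuvB targets, in 10% of 30 windows of the RB and E2F targets, and in 18.1% of all 27457 windows. The planned E2F letters were in 2.94%, 63.3% and 3.52% of the same sets, and the CCAAT box in 76.5%, 63.3% and 37.7%. The forkhead letters TGTTTAC or TGTTTGC were in 5.88%, 6.67% and 8.33%. The lists were drawn from knowledge of these factors, so the shares describe the lists and were not tested.

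**Figure D4:**
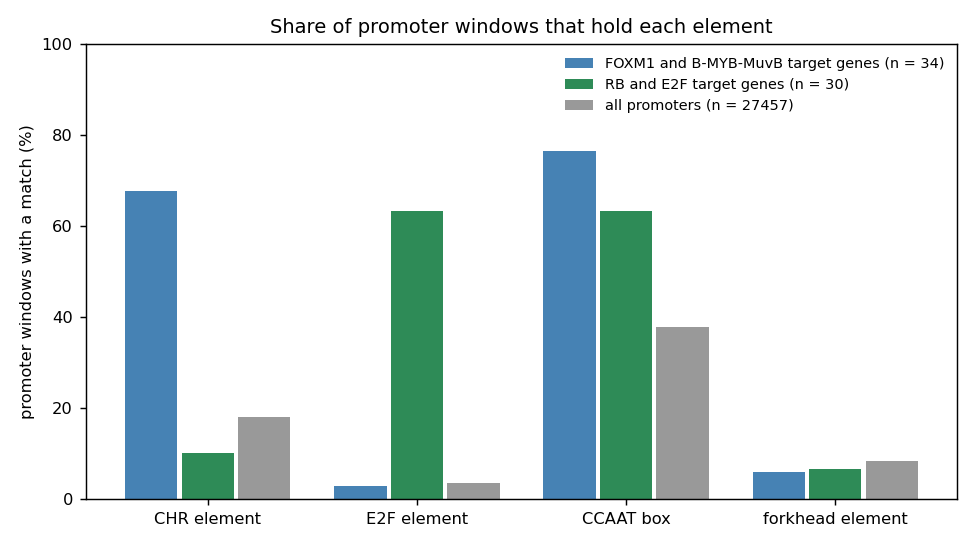
Share of 300-base promoter windows (vertical axis, percent) that hold each element (horizontal axis) among the FOXM1 and B-MYB-MuvB targets, the RB and E2F targets and all windows. The CHR bar is tallest for the first list at 67.6% and the E2F bar for the second at 63.3%.

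Among the late targets with a window, the 23 genes with CHR letters had a median log2 ratio of 2.88 (-0.93 to 5.60). The 10 genes without them had 3.44 (0.52 to 4.72). Among the E2F targets with a window, the 18 genes with planned E2F letters had a median of 2.11 (0.22 to 3.62). The 11 without them had 1.16 (0.33 to 2.96), so the ranges overlapped. The added spellings were not used in this split, and genes without a window, such as *Rrm2*, are in neither group. These differences were not tested. In the windows of the 10 genes themselves, CHR letters were found for *Lin9*, *Lin37*, *Lin54* and *Rbl2*, or 4 of 8, and the planned E2F letters for *Lin52* and *Rb1*. No window of the 8 held the forkhead letters. The added E2F spellings, found for *Mybl2* and *Rbl1* as printed above, were in 1.18% of all windows. Of the 4 genes with CHR letters only *Lin54* was called higher. Of the 2 with planned E2F letters *Rb1* was higher, and *Lin52* was lower at its brightest probe only. *Mybl2* and *Rbl1*, both higher, matched only spellings added after their sequences had been seen, so they were not counted with these.

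The genes with profiles most like *Foxm1* over the 6 arrays, among 17389 genes, were *Nucks1*, *Vrk1*, *Reep4*, *Hist1h2af* and *Rn45s*, with a Pearson's r of 0.991 to 0.997. Those most like *Mybl2* were *Spag5*, *Fam132b*, *Cenpw*, *Dtl* and *Kif20b*, with an r of 0.996 to 0.998. The correlation follows shape and not size: the log2 ratio was 0.97 for *Nucks1* and 0.30 for *Rn45s*, against 4.81 for *Spag5* and 4.54 for *Cenpw*. These r describe 6 arrays that fall into 2 groups and come from 3 shared preparations.

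Some markers of other cells also differed between the sorted pools, where 5.94% of all named genes were higher. Of 11 β-cell markers 0 were higher and 1, the transcription factor gene *Mafa* at -1.01, was lower. Among fibroblast and stellate cell markers 4 of 10 were higher, and their mean level was 9.08 to 10.2 on the replicating and 8.13 to 8.45 on the quiescent arrays, with *Col1a2* at 2.93 and *Col3a1* at 3.04. The glucagon gene *Gcg* was higher by 2.39 among 3 of 6 alpha cell markers, whose mean level was 9.27 to 10.2 against 8.20 to 9.11. Delta and PP cell markers were higher for 3 of 4 genes (9.15 to 10.1 against 7.99 to 8.92). Immune cell markers were higher for 2 of 7 (8.45 to 8.71 against 7.89 to 8.21) and acinar and duct markers for 2 of 10 (9.29 to 10.5 against 9.26 to 10.5). Only 4 of these 10 acinar and duct ratios lay above 0, with a median of -0.15. The amylase gene *Amy2a3* differed by preparation, at 9.19 and 8.91 on the replicating and quiescent arrays of preparation 1 and 12.4 to 13.5 on the others. Endothelial markers were higher for 0 of 6 (9.34 to 10.5 against 9.57 to 9.79). The part of these cells in the ratios above was not tested.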

How the data were processed

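RNA of sorted replicating and quiescent β-cells was amplified (Sigma WTA2), and the Cy3-labelled cDNA was hybridized to Agilent rat gene expression arrays. The paper reports far fewer cells and far less extracted RNA for the replicating than for the quiescent fraction. The part of this difference in the ratios was not tested. The authors deposited Feature Extraction 10.7.3.1 files with the intensity, local background and flags of each spot, not normalized between arrays. The log2 values that the authors deposited for each spot had been corrected with normexp and then quantile normalized. These were used here; normexp at an offset of 50 followed by quantile normalization of the intensity values gave them back within 0.000245. Probe positions are on rn4 per the file headers.

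Control spots were left out, outlier spots were treated as missing and repeated spots were averaged per probe, which gave 45598 probes, 44652 with 6 values. limma 3.58.1 (R 4.3.3) was fitted to all probes with the islet preparation as a block and Benjamini-Hochberg adjustment over all probes. The fit was tested on simulated data. The pairing comes from the labels; paired arrays deviated from their group means with an r of 0.0561, 0.242 and 0.258 across probes. For a gene with several probes the brightest, by mean log2 value over the 6 arrays, stood for the gene. Replicates are separate pools of rats, and 3 arrays per group limit the precision; no depth applies to arrays and no spot was saturated.

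The 10 genes and the gene lists were chosen with earlier results of these data known. Named were every probe of the 10 genes, *Rbbp4*, *E2f4*, *Tfdp1*, *Tfdp2* and *Dyrk1a*, the 3 highest and 3 lowest genes of each list among those well above background on all 6 arrays, and the 5 genes most correlated with *Foxm1* and with *Mybl2*. Of the genes so chosen, 1 is not reported here. The other genes named with values (called partners, markers) were chosen after their values were seen. *E2f5*, *Myb*, *Cenpe*, *Chaf1a* and *G6pc2* were not analysed here. Alternatives were Feature Extraction's processed signal scaled to the 75th percentile, normexp values so scaled, cyclic loess, outlier spots kept, probes well above background only, a variance trend, no block, a median taken across each gene's probes, and each preparation left out. Promoter windows came from RefSeq (GRCr8).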

Additional observations from a re-analysis of the deposited data

How the results depend on the processing

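*Foxm1*, *Mybl2* and *Mybl1* stayed higher at the unadjusted p under all 11 alternatives. These read the brightest probe, except for the median over probes, which lowered *Foxm1* to 1.88 and *Mybl1* to 1.61. The calls of *Lin52* and *Lin54* were lost under 3 of 11, of *Rb1* under 4 and of *Rbl1* under 1. The number of all probes past the adjusted p, 0 as reported (4379 at the unadjusted p), was 719 with normexp values scaled to the 75th percentile, 204 with cyclic loess, 99 without the replicate block, 61 with a variance trend and 0 to 84 with 1 preparation left out, the highest without preparation 2. Probes of the 10 genes among them numbered 4 for 3 genes with the first and second of these, 2 for *Mybl2* without the block, 1 with the trend and 3 for *Foxm1* and *Mybl2* without preparation 2. Over the alternatives the adjusted p of *Foxm1* ran from 0.000199 to 0.966. Against 2286 higher and 2093 lower probes as reported, the counts were 662 and 3193 with the processed signal, 1596 and 5862 with normexp at the 75th percentile, 3006 and 3256 with cyclic loess, and 2452 and 1202 without the block. With a preparation left out they were 518 to 5112 higher and 63 to 5633 lower, lowest without preparation 1 and highest without preparation 3. The median ratio of all probes, -0.07 as reported, was -0.71 with the processed signal and -0.39 with normexp at the 75th percentile, so ratios there are relative to that shift.

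Of the 10 genes, 3 to 6 were higher and 0 to 1 lower with a preparation left out, and 0 were lower with the processed signal or with the median over probes. Of the partners, 2 were higher with the processed signal and 1 to 7 with a preparation left out, where their median was 0.34 to 1.18; it was 0.50 with normexp at the 75th percentile and 0.55 with cyclic loess. The median of the late targets was 3.70 with the processed signal, 2.99 with cyclic loess and 2.69 to 3.19 with a preparation left out. That of the E2F targets was 1.16 with normexp at the 75th percentile, and 14 to 22 of these were higher with a preparation left out.

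Among the probes of the 10 genes and the other genes named by rule, signs turned only for probes that were not called. *Lin37* was -0.16 with the processed signal, -0.14 with normexp at the 75th percentile and -0.28 with cyclic loess, and -0.15 to 0.12 with a preparation left out. The third *Lin52* probe was -0.68 and -0.36 with the same scalings and -0.069 to 0.50 with a preparation left out. The brighter *Rbl2* probe was -0.66 and -0.18, -0.26 with the median over probes, and -0.63 to 1.04 with a preparation left out. *Cdc20* was 0.11 and 0.10, *Mcm10* -0.44 and -0.10, *Cdk6* 0.28 with the median over probes and *Cdc25a* -0.064 with cyclic loess. With a preparation left out, *Fzr1* was -0.80 to 0.44, *Birc5* -1.96 to 0.59, *E2f4* -0.13 to 2.17 and *Cdc20* -0.97 to 0.20; *Fzr1*, *Birc5* and *E2f4* turned without preparation 2, and *Cdc20* without 1 or 2. The cause of these changes was not tested.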
